A study of Mus musculus with 8 samples.

Results

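Among T cells from the pancreas of diabetic NOD mice, a strain with spontaneous autoimmune diabetes, 2010 CD4 cells carried transcripts of at least 2 of 6 genes known from follicular helper or anergic CD4 cells. The 6 genes were Izumo1r, Pdcd1, Tbc1d4, Cxcr5, Maf and Il21, and a gene counted as present with at least 1 UMI, the molecular tag that marks a captured transcript. The cells had passed a gate of CD4 cells that took 24641 of 77486 kept T cells, from 80470 barcodes in all. The gate required at least 1 UMI of Cd4 and none of Cd8a, Cd8b1, Foxp3 or Ccl5, and left out cells with both Il2ra and Ikzf2, so as to keep CD8, regulatory and cytotoxic cells aside. They were compared with 17264 cells of the same gate that had none of the 6 genes. Another 5367 cells had 1 of the 6. The levels of the 6 genes, and those of the gate genes, therefore chose the cells and are given below as a description only.

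Follicular helper T cells enter B cell follicles through the chemokine receptor CXCR5, give help to germinal centre B cells through IL-21, CD40 ligand and ICOS, and depend on the transcription factors BCL6 and MAF. Anergic CD4 cells are cells that met antigen without enough costimulation, respond poorly afterwards, and in mice carry much folate receptor 4 (encoded by Izumo1r) and CD73 (encoded by Nt5e). PD-1 (encoded by Pdcd1) is an inhibitory receptor present on both kinds of cell, and Tbc1d4 encodes a regulator of Rab GTPases. Regulatory T cells share several of these genes, among them Izumo1r, Maf, Nt5e and Nrp1.

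The 8 single-cell 3′ libraries came from CD45+ CD3+ TCRβ+ cells sorted from the pancreas, frozen, and processed together. All mice were NOD mice, labelled as female and spontaneously diabetic, aged 3 to 4 months in the genotype label and 3 to 5 months in the treatment protocol. One library came from mice with active disease, above 600 mg/dl of glucose, and 1 from mice at onset, at 250 mg/dl. Both were untreated and harvested on day 1. The treated mice started at 200 to 300 mg/dl and received vehicle (ethanol, Tween 20 and PEG300) or PPCA, which joins 50 mg/kg nutlin-3, a blocker of the p53 inhibitor MDM2, with 25 mg/kg MK-1775, a blocker of the cell cycle kinase WEE1. Vehicle and PPCA had 1 library each at days 2, 3 and 4 of the sample names. The study asked how daily treatment changes CD4 and CD8 T cells in the pancreas. The labels do not give the number of mice per library or say whether libraries came from separate mice, so p-values measure the spread between libraries.

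The libraries held 36934580 to 67603740 UMIs each, and the selected cells of a library summed to 869285 to 2339017 UMIs. All are labelled female, but 4 libraries had 188 to 275 UMIs per 1000000 UMIs (CPM) of Y-linked transcripts with at most 0.744 CPM of Xist. These were vehicle days 2 and 3 and PPCA days 3 and 4. The other 4 (active, onset, PPCA day 2 and vehicle day 4) had 418 to 623 CPM of Xist and at most 0.167 CPM of Y-linked transcripts. On days 2 and 4 treatment was therefore paired across this difference, in opposite directions, while both day 3 libraries carried Y-linked transcripts. Between 10 and 38 barcodes were shared by each of the 28 pairs of libraries, and 2 of these were selected cells in both.

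The selected cells numbered 139 in active disease and 199 at onset. Vehicle gave 192, 282 and 341 on days 2, 3 and 4, and PPCA 259, 170 and 428. Their median depth was 3745 to 6570 UMIs per cell over the libraries, close to the 3894.5 to 6091.5 UMIs of the cells with none of the 6 genes. The top doublet scores took 3.53% to 12.02% of the selected cells and 3.38% to 7.92% of the comparison cells. B or myeloid UMIs were summed over Cd79a, Ms4a1, Igkc, Lyz2, Cst3 and Tyrobp. More than 1 was present in 16.8% to 26.6% of the selected cells and 6.32% to 18.2% of the comparison cells. Of these genes Cst3 had the highest level, at a median of 144 CPM in the selected cells.

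Tbc1d4 and Izumo1r chose most of the cells. Tbc1d4 was present in 1649 of the 2010 cells (82.0%), Izumo1r in 1502 (74.7%) and Maf in 1209 (60.1%). Pdcd1 was present in 356 (17.7%), Il21 in 154 (7.66%) and Cxcr5 in 126 (6.27%). Of the cells, 1311 had 2 of the 6 genes, 480 had 3, 168 had 4, 44 had 5 and 7 had all 6. The commonest combination was Izumo1r with Tbc1d4 alone (587 cells, 29.2%), followed by Tbc1d4 with Maf (346, 17.2%), all 3 of these genes (316, 15.7%) and Izumo1r with Maf (215, 10.7%). The first of these made up 20.3% of the cells in vehicle day 2 and 41.0% in active disease, the lowest and highest library.

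Free RNA in droplets can place a UMI in a cell that does not express the gene. Each gene was therefore also counted in CD8-gated cells without Ccl5, with every cell thinned to 2000 UMIs. The authors' deposited table of cluster genes lists Pdcd1 for a CD8 cluster, with detection in 17.2% of its cells. CD8 cells can thus carry such transcripts themselves, and the CD8 share does not measure free RNA alone. Izumo1r was present in a median of 8.91% of the CD4 gate against 3.38% of CD8 cells, Tbc1d4 in 7.93% against 1.68%, and Maf in 4.48% against 0.801%. Pdcd1 was present in 1.10% against 0.276% and Il21 in 0.405% against 0.0650%. For these 5 genes the CD4 share was above the CD8 share in 8 of 8 libraries. Cxcr5 was present in 0.349% against 0.320% and was above the CD8 share in 5 of 8, so its share over the whole gate could not be told from the CD8 share.

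The overlap of the 6 genes within cells is given as a description, since the same values chose the cells, and no expected overlap was computed. Of the 157 Il21-positive cells of the CD4 gate, 98.1% carried another of them, as did 83.4% of the 151 Cxcr5-positive cells. The shares were 70.4% of 506 for Pdcd1, 67.7% of 1787 for Maf, 45.1% of 3656 for Tbc1d4 and 36.6% of 4106 for Izumo1r. In CD8-gated cells the same share was 74.1% for Il21, 27.2% for Cxcr5, 55.4% for Pdcd1, 43.1% for Maf, 36.5% for Tbc1d4 and 23.1% for Izumo1r.

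The name of the cells was checked against genes that the selection did not use, and the answer was mixed. Follicular helper and anergy genes were higher than in the comparison cells, but so were genes of regulatory, type 1 and type 17 helper cells. No germinal centre or follicle can be seen in sorted T cells, so the cells are called the selected cells here.

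Of 11229 genes tested between the selected and the comparison cells, 3650 passed (32.5%), with 1817 higher (16.2%) and 1833 lower (16.3%). The test was edgeR's quasi-likelihood test on counts summed per library, blocked by library, at a Benjamini-Hochberg adjusted p under 0.05. The median over all genes was -0.03 on the log2 scale after TMM scaling, which sets the bulk of the genes near 0. Scaled by total counts alone, an alternative chosen after seeing the data, that median was 0.16, and 4499 genes passed, 3803 higher and 696 lower (84.5% higher, against 49.8%). Of the 3650 calls, 2513 were shared between both scalings, so the calls of genes with small differences, above all of those that were lower, depended on the scaling. Differences below are those after TMM scaling, and levels are plain CPM. With comparison cells drawn to match the depth of the selected cells the count was 2291. It was 2258 when cells with any Il2ra or Ikzf2 were left out, and 2030 and 2689 in the 4 Xist and 4 Y-linked libraries alone.

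Of the 18 follicular helper genes outside the selection, 17 could be tested, 14 were higher and 1 was lower, with a median log2 fold change of 1.18. That median lay between 0.90 and 1.41 in every library. Scaled by total counts alone, 15 were higher and none lower (median 1.37). The genes that were higher covered transcription factors, receptors of the contact with B cells, adaptors and secreted products.

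Icos encodes the costimulatory receptor through which B cells sustain follicular helper cells. Its level in the selected cells was 69.0 CPM in the lowest library, 99.8 in the median and 134.5 in the highest, against 7.50, 12.7 and 19.7 in the comparison cells. The groups did not overlap, and the log2 fold change was 2.65 ± 0.08 (SE, 8 libraries, edgeR adjusted p = 1.10e-25). For Cd200, whose product is the ligand of an inhibitory receptor, the selected cells had 66.2, 107 and 222 CPM and the comparison cells 2.65, 4.50 and 10.4. Again every library of selected cells was above every library of comparison cells, by 4.55 ± 0.11 on the log2 scale (edgeR adjusted p = 1.66e-27). Vehicle day 2 (205 CPM), PPCA day 2 (214) and PPCA day 4 (222) held the 3 highest levels of Cd200, and the other 5 libraries had 66.2 to 112 CPM.

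Slamf6, a receptor of the SLAM family, and Sh2d1a, which encodes the adaptor SAP that binds such receptors, changed less. Slamf6 stood at 156.5, 276 and 324 CPM (lowest, median and highest library) against 67.8, 107 and 124 CPM, a log2 fold change of 1.18 ± 0.06 (edgeR adjusted p = 2.73e-19). Sh2d1a stood at 100.5, 124 and 188 CPM against 57.6, 65.5 and 71.8 CPM, a log2 fold change of 0.83 ± 0.07. Both were without overlap between the groups. Btla, an inhibitory receptor, was higher by only 0.32 on the log2 scale, in 7 of 8 libraries. Cd40lg, the ligand that activates B cells, differed by 0.13 and did not pass the test (edgeR adjusted p = 0.238), but was higher and passed when scaled by total counts alone (0.32).

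Among transcription factors, Tox2 had 4.90, 13.0 and 42.0 CPM against 0.115, 0.219 and 0.410 CPM, a log2 fold change of 5.68 ± 0.29. Irf4, a factor of T cell activation, had 19.5, 30.7 and 39.0 CPM against 1.50, 4.51 and 17.5 CPM (log2 fold change 2.16 ± 0.22). Batf, which acts with it, had 51.8, 57.0 and 72.7 CPM against 24.2, 26.7 and 34.7 CPM (0.88 ± 0.08). These 3 did not overlap between the groups. Bcl6, the repressor that defines follicular helper cells, was low in both groups, at 5.13, 14.6 and 27.6 CPM against 4.65, 6.11 and 8.91 CPM. Its levels overlapped, and it was higher in 7 of 8 libraries by 1.07 ± 0.16 on the log2 scale. Pou2af1, which encodes a coactivator, was higher by 1.03.

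Angptl2 and Gpm6b, a secreted protein and a membrane glycoprotein, were close to absent from the comparison cells. Gpm6b had 23.7, 68.2 and 125 CPM against 0.403, 0.870 and 2.92 CPM, a log2 fold change of 5.89 ± 0.17 (edgeR adjusted p = 5.49e-26). Angptl2 had 12.8, 25.9 and 51.3 CPM against 0, 0.154 and 0.307 CPM (7.01 ± 0.26). Both came from few cells, with a UMI of Gpm6b in 392 selected cells (19.5%) and of Angptl2 in 143 (7.11%). Sostdc1, which encodes an extracellular antagonist of BMP and Wnt signals, was rarer still. It gave 151 UMIs in 22 selected cells (1.09%), none of them at onset, and 3 UMIs in all comparison cells, a ratio of 382 in UMIs per total with a 95% counting interval of 128 to 1873. The interval takes UMIs as independent, while 1 cell of vehicle day 2 held 37 of the 151. Il4, which in follicular helper cells directs antibody class, gave 22 UMIs in 13 selected cells and 3 in the comparison cells (ratio 55.6, interval 16.7 to 290).

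The gene of the list that was lower was Il6ra, at -0.30 on the log2 scale in 8 of 8 libraries, a call that was lost when scaled by total counts alone (-0.11). Its partner Il6st differed by -0.02 (edgeR adjusted p = 0.878), and the sign changed with the scaling. These genes encode the chains of the receptor for IL-6, a cytokine that favours follicular helper cells.

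**Figure D1:**
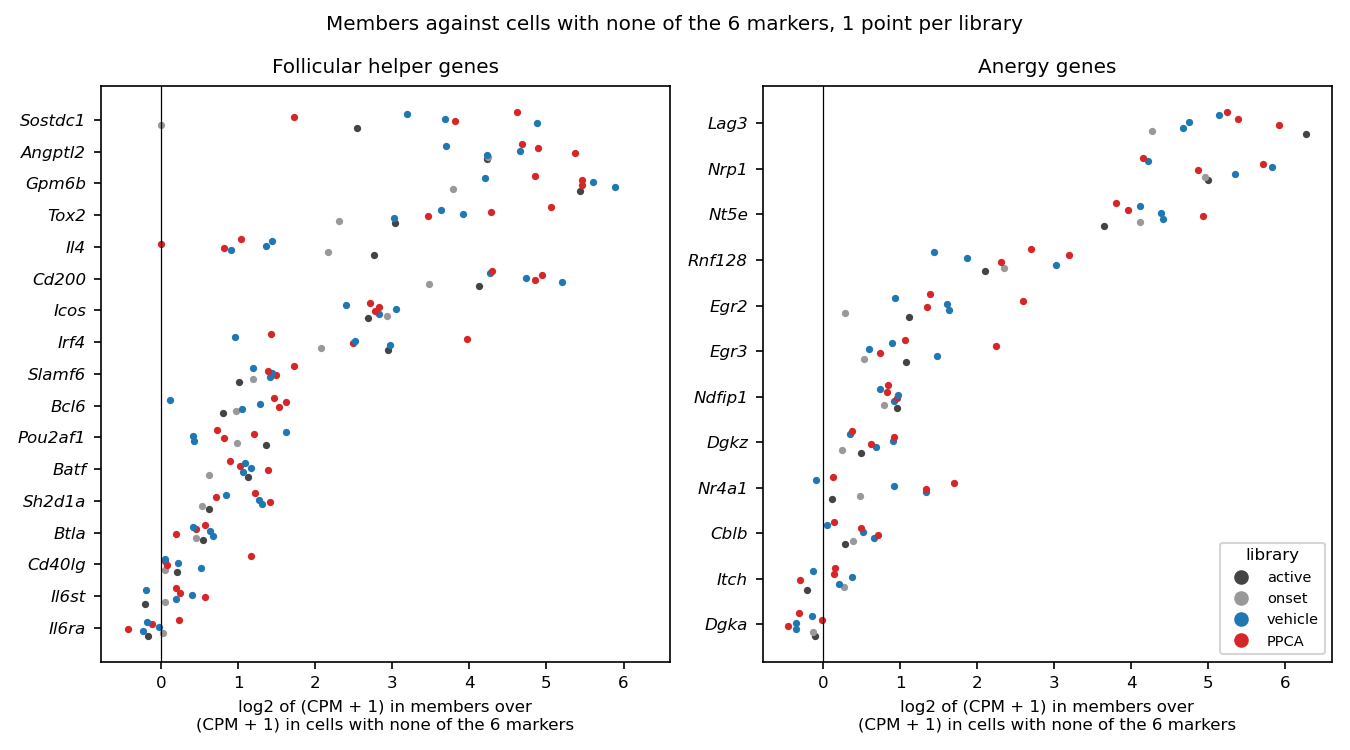
Difference between selected cells (members) and cells with none of the 6 genes, as log2 of the ratio of CPM + 1, for the tested follicular helper genes (left) and anergy genes (right), with 1 point per library coloured by active, onset, vehicle or PPCA. All 8 points of Cd200, Gpm6b, Icos, Nrp1, Nt5e and Lag3 lie to the right of 0, and those of Il6st and Itch lie on both sides of it.

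Of the 12 anergy genes outside the selection, 10 were higher and 1 was lower, with a median log2 fold change of 0.82 that ran from 0.29 to 1.83 over the libraries. The calls of 2 of the 10, Cblb and Nr4a1, held in only 11 and 9 of 22 alternatives and were lost, for example, without onset, without vehicle day 2 or without PPCA day 2. Nt5e encodes the enzyme CD73, which makes adenosine and marks anergic CD4 cells together with folate receptor 4. It stood at 40.6, 70.2 and 125 CPM in the selected cells and at 1.40, 2.95 and 3.73 CPM in the comparison cells. The groups did not overlap, with a log2 fold change of 4.42 ± 0.12 (edgeR adjusted p = 1.51e-26). Nrp1, the co-receptor neuropilin 1, stood at 51.7, 108 and 177 CPM against 1.04, 1.90 and 5.26 CPM (5.28 ± 0.14, edgeR adjusted p = 5.28e-27). Lag3, an inhibitory receptor for MHC class II, stood at 33.5, 52.8 and 115 CPM against 0.346, 0.715 and 1.02 CPM (6.30 ± 0.17, edgeR adjusted p = 2.07e-26). For each of these 3 genes the lowest library of selected cells was above the highest library of comparison cells.

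The ubiquitin ligase genes of anergy changed unevenly. Rnf128, which encodes GRAIL, was higher by 4.27 ± 0.43 on the log2 scale, at a mean of 2.72 CPM over both groups. Ndfip1, an adaptor of such ligases, had 338, 377 and 530 CPM against 183, 217 and 297 CPM, without overlap (0.69 ± 0.04). Cblb was higher by 0.18 in 6 of 8 libraries, and Itch differed by -0.12 without passing the test (edgeR adjusted p = 0.194), with the opposite sign when scaled by total counts alone (0.07). Of the diacylglycerol kinases, which dampen receptor signals, Dgkz was higher by 0.39 and Dgka lower, at -0.42, each in 8 of 8 libraries.

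Egr2 and Egr3 encode receptor-induced factors that drive anergy genes. Egr2 had 9.81, 16.3 and 35.7 CPM against 3.80, 7.51 and 9.42 CPM, without overlap (1.31 ± 0.17). Egr3 was higher by 0.96 ± 0.13 in 8 of 8 libraries. Nr4a1 was higher by 0.32 in 5 of 8 libraries, at an edgeR adjusted p of 0.0472.

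After TMM scaling, levels of 618 of the 11229 genes (5.50%) did not overlap between the groups over the 8 libraries. On plain CPM the same held for 9 of the 18 follicular helper genes and 6 of the 12 anergy genes. It also held for 6 of the 9 checkpoint genes, always with the selected cells above. Plain CPM sets the selected cells relatively higher than TMM scaling does, so these counts cannot be set against that share.

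Checkpoint receptors outside the selection were higher for 8 of 9 genes, with a median log2 fold change of 3.90. Lag3 is on this list too. Ctla4, which competes with CD28 for its ligands, had 55.7, 115 and 582 CPM against 2.96, 4.80 and 45.0 CPM, and was higher by 3.92 ± 0.13 on the log2 scale. Of 15 genes that respond to the T cell receptor, 13 were higher and 2 lower (Myc and Cd69, the latter with its call lost when scaled by total counts alone), with a median of 0.65. Tnfaip3, which encodes an inhibitor of NF-kappa B signals, was higher by 0.52 ± 0.08, Cd5, which encodes a dampener of receptor signals, by 0.65 ± 0.05 and Egr1 by 0.19 ± 0.06. Cd5 had 248, 322 and 416 CPM against 130, 190 and 228 CPM, without overlap. Tnfrsf4, the costimulatory receptor OX40, chosen after its values were seen, had 72.7, 115 and 215 CPM against 8.02, 11.3 and 13.9 CPM.

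Genes of resting cells were lower. Of 10 such genes, 9 were lower and none was higher, with a median log2 fold change of -0.85. Lef1, a transcription factor of naive cells, had 289, 448 and 569 CPM in the selected cells and 755, 926 and 1050 CPM in the comparison cells. The groups did not overlap, with a log2 fold change of -1.25 ± 0.06 (edgeR adjusted p = 4.79e-18). Igfbp4 had 101, 254 and 321 CPM against 468, 576 and 662 CPM (-1.51 ± 0.11). Klf2, a factor of quiescence with a higher mean level than Lef1, was lower by less (-0.54 ± 0.06), as were S1pr1 (-0.48) and Tcf7 (-0.30).

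Genes of other helper lineages were higher as well. Of 13 tested type 1 effector genes 12 were higher and none lower (median 2.58). Those of highest level differed less, Id2, which encodes an inhibitor of E proteins, by 1.07 ± 0.08 and Il18r1, which encodes a chain of the IL-18 receptor, by 1.12 ± 0.06. Id2 had 135, 238.5 and 309 CPM against 56.8, 91.9 and 143 CPM. Ifng, the type 1 cytokine, had 16.3, 46.0 and 214 CPM against 0.180, 0.974 and 5.26 CPM, without overlap (5.02 ± 0.15). The chemokine receptor Cxcr3, chosen after its values were seen, had 49.0, 64.5 and 126 CPM against 1.50, 2.32 and 5.84 CPM. All 6 tested genes of type 2, type 17 and IL-10-producing cells were higher (median 5.66), among them Ccr6 (5.83), Il10 (5.89) and Gata3 (0.61). Il17a rested on 27 UMIs in 5 selected cells against 1 UMI in the comparison cells. Of the 27, 17 were in 1 cell and 22 in vehicle day 4. Il10 was present in 52 selected cells (2.59%), of which 30 were in PPCA day 4.

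All 6 tested regulatory T cell genes outside the selection were higher (median 1.91), although cells with Foxp3 had been removed. Tnfrsf18, which encodes the receptor GITR, had 111, 144 and 209 CPM against 85.4, 90.4 and 114 CPM, with overlapping ranges, and was higher by 0.44 ± 0.06. Capg had 44.7, 58.6 and 77.3 CPM against 5.60, 8.21 and 11.5 CPM, and Ikzf4 was higher by 1.99 ± 0.18. A UMI of Il2ra or Ikzf2 was present in 20.6% to 48.3% of the selected cells and 1.18% to 2.69% of the comparison cells, and such regulatory cells without a Foxp3 UMI cannot be told apart from the others by these counts. The 8 regulatory genes summed to 293 to 636 CPM in the selected cells, 104 to 151 CPM in the comparison cells and 1228 to 1789 CPM in the 1231 CD4 cells with Foxp3. Without cells holding any Il2ra or Ikzf2 UMI, the median of the regulatory list was 0.97, that of the follicular helper list 0.99 and that of the anergy list 0.66. In the same cells Lag3 was higher by 6.03, Nrp1 by 5.17 and Nt5e by 4.02. Sh2d1a was higher by 0.49 (0.83 with all cells), Batf by 0.66 (0.88) and Bcl6 by 0.86 (1.07), and the calls of Btla (0.22) and Cblb (0.17) were lost.

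In the 1231 cells with Foxp3, several of the anergy and follicular helper genes stood as high as in the selected cells. Nt5e had 57.8, 83.8 and 129 CPM there and Nrp1 67.9, 136 and 200 CPM. Median levels over the libraries were 117 CPM of Icos (99.8 in the selected cells), 148 of Sh2d1a (124) and 75.5 of Batf (57.0). Bcl6 (16.7 against 14.6) and Tox2 (14.3 against 13.0) were close. Cd200 (91.0 against 107), Slamf6 (159 against 276) and Cd40lg (53.9 against 107) had lower medians there than in the selected cells. Gpm6b (8.73, 18.3 and 40.5 CPM) and Ifng (1.56, 13.2 and 61.6 CPM) had lower medians than in the selected cells, and Ctla4 (184, 242 and 982 CPM) a higher one. These levels were not tested against the selected cells.

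The remaining lists were those of migration, interferon, division, p53 and early response. Migration and residence genes were higher for 9 and lower for 3 of 12 (median 1.91; lower for 1 when scaled by total counts alone), and the genes of highest level were Cd69 (-0.21), S1pr1 (-0.48), Itgb1 (3.52) and Itga4 (1.12). The integrin gene Itgb1 had 385, 656 and 938 CPM against 29.4, 51.0 and 78.7 CPM. Interferon response genes were lower for 8 of 11 and higher for none (median -0.38). Scaled by total counts alone, 2 of the 11, Ifit3 and Oasl2, were lower and 2 were higher (median -0.20). The calls of 2 of these 8, Zbp1 and Bst2, held in only 7 and 11 of 22 alternatives and were lost, for example, without onset, vehicle day 2, PPCA day 2 or vehicle day 3. Cell cycle genes were higher for 9 of 18 (median 1.06), led in level by Hmgb2 (0.71) and Mcm6 (0.91). The p53 target genes were higher for 7 and lower for 3 of 18 (median 0.20), among them Trp53inp1 (0.85), Ccng1 (0.42) and Sesn1 (-0.61). Scaled by total counts alone, 14 of the cell cycle genes were higher, as were 12 of the p53 target genes, with 2 of the latter lower (median 0.39). Dissociation and early response genes were higher for 4 and lower for 4 of 12 (median -0.00), and for 7 and 1 of 12 when scaled by total counts alone (median 0.19).

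Markers of other cell types were present at low levels, and some were higher in the selected cells. The summed level of 8 B cell markers was 116 to 196 CPM in the selected cells and 114 to 228 CPM in the comparison cells, above the latter in 1 of 8 libraries, with Ms4a1 and Pax5 at 0 in the selected cells. Ighm made up most of that sum and was lower (-0.49), while Cd79b (1.47, edgeR adjusted p = 0.00395) and Igkc (1.19, edgeR adjusted p = 0.0211, in 5 of 8 libraries) were higher, at means of 2.18 and 3.60 CPM. The call of Igkc held in 11 of 21 alternatives, from -0.27 with depth-matched cells to 2.35. The 9 myeloid markers summed to 136 to 172 CPM against 101 to 137 CPM, higher in 8 of 8 libraries, with C1qb at 0. Cst3 made up most of that sum, at medians of 144 and 114 CPM, and alone passed among 4 tested markers. Its median was 112 CPM in CD8-gated cells and 178 CPM in CD4 cells with Foxp3. The 12 pancreas markers summed to 4.90 to 79.4 CPM against 2.66 to 191 CPM, and the 6 markers of unconventional T and NK cells to 2.95 to 22.1 CPM against 5.84 to 14.3 CPM, with Ncr1 at 0. The latter sum was above that of the comparison cells in 6 of 8 libraries, and of 3 tested markers Zbtb16 (4.49, in 3 of 8 libraries) and Klrk1 (2.39, in 7 of 8) were higher and Trdc was lower, a call lost when scaled by total counts alone. The 2 higher genes stood at means of 0.674 and 1.98 CPM. Zbtb16 had a median of 0 CPM over the libraries in both groups and could be tested in only 13 of 22 alternatives. Its call therefore rests on few libraries and is given as a description only. The part of unconventional T and NK cells in the results was not tested. Without doublets and cells with B or myeloid UMIs the median of the follicular helper list was 1.29 and that of the anergy list 0.92.

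The genes with the largest differences at 20 CPM or more, the same way in 8 of 8 libraries, included Lag3, Gpm6b, Nrp1, Ifng and Cd200 on the higher side. The other 5 were Nrn1, which encodes neuritin (5.68), Tiam1, an activator of the GTPase Rac (4.80), Tnfsf11, which encodes RANKL (4.66), S100a4 (4.56) and Bhlhe40, a transcription factor of effector T cells (4.46). Bhlhe40 varied widely among libraries, from 22.1 to 319 CPM in the selected cells and from 0.987 to 9.94 CPM in the comparison cells. On the lower side stood Pdlim4 (-1.79), Prf1, which encodes perforin (-1.69), Auts2 (-1.63), Igfbp4 (-1.51), Myo10 (-1.39), Atp1b1 (-1.34), Treml2 (-1.32), Ggt5 (-1.30), Dapl1 (-1.27) and Lef1 (-1.25).

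Cells at the limit of the selection were compared without a test. Those with exactly 2 of the 6 genes had a median over the libraries of 17.8 CPM of Lag3, 41.6 of Nt5e, 76.5 of Nrp1, 59.3 of Cd200, 70.7 of Icos and 536 of Lef1. Those with 1 of the 6, just outside, had 2.95, 9.01, 11.2, 12.2, 24.9 and 861 CPM of the same genes. The levels of the cells just outside thus lay between those of the selected cells and those with none.

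The selected cells were not uniform, and the genes they carried differed with the combination that had chosen them. Levels of a combination are means over the 8 libraries with equal weight, ± SD, and carry no test, and cells with Pdcd1, Cxcr5 or Il21 can also belong to each other's sets. Each library gave 6 to 25 cells with Cxcr5 and 7 to 50 with Il21, and PPCA day 4 held 50 of the 154 Il21-positive cells. Cells with Izumo1r and Tbc1d4 alone had the highest level of 7 combinations in 7 of 8 libraries for both Lef1 (650 ± 195 CPM) and Igfbp4 (381 ± 158 CPM), genes of resting cells. Their Lag3 was 15.0 ± 14.5 CPM. It stood at 99.5 ± 96.1 CPM where Maf was added to the pair, 113 ± 42.4 in cells with Pdcd1, 105 ± 71.8 in cells with Cxcr5 and 300 ± 126 in cells with Il21, which were highest in 8 of 8 libraries.

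Cells with Il21 had the highest mean level of several follicular helper and type 1 genes among the 7 combinations. Gpm6b stood at 249 ± 140 CPM in them and was highest there in 8 of 8 libraries, against 115 ± 68.0 in cells with Izumo1r, Tbc1d4 and Maf and 39.7 ± 25.1 in cells with Izumo1r and Tbc1d4 alone. Cd200 stood at 454 ± 159 CPM with Il21, 256 ± 102 with Pdcd1, 195 ± 108 with Cxcr5 and 72.3 ± 56.2 with Izumo1r and Tbc1d4 alone, and was highest with Il21 in 7 of 8. Ifng stood at 238 ± 184 CPM with Il21, 102 ± 98.5 with Pdcd1 and 94.0 ± 82.9 with Cxcr5, and Bhlhe40 at 309 ± 305, 160 ± 181 and 115 ± 126 CPM. Both varied widely among libraries (Ifng with Il21 from 36.9 to 515 CPM) and were highest with Il21 in 6 of 8. Sostdc1 rested on only 10 cells with Il21, 11 with Pdcd1 and 3 with Cxcr5. Bcl6 had its highest mean where Cxcr5 was present, at 31.5 ± 24.4 CPM, but in only 4 of 8 libraries. Sh2d1a stood at 256 ± 94.2 CPM with Cxcr5 and 243 ± 95.7 CPM with Il21, less apart than the spread over libraries.

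Itgb1 and Ccr6, chosen after their values were seen, differed between cells with Tbc1d4 and Maf alone and those with Izumo1r and Tbc1d4 alone. Itgb1 stood at 1190.5 ± 257 CPM in the former and 394 ± 195 CPM in the latter, and was also high in cells with all 3 genes (866 ± 151 CPM) and with Il21 (819 ± 287 CPM). Ccr6, a chemokine receptor gene of type 17 cells, stood at 38.0 ± 48.8 CPM against 2.11 ± 2.65 CPM and was higher in the former in 5 of 8 libraries. By library, Itgb1 in the cells with Tbc1d4 and Maf alone ranged from 878 to 1648 CPM, above the range of 192 to 798 CPM in those with Izumo1r and Tbc1d4 alone.

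The regulatory gene Ikzf2 stood at 250 ± 125 CPM in cells with Cxcr5, 247 ± 110 with Izumo1r, Tbc1d4 and Maf, 218 ± 133 with Il21 and 196 ± 94.8 with Pdcd1, means closer together than their spread over libraries. It stood at 90.0 ± 45.3 CPM in cells with Tbc1d4 and Maf alone and 95.4 ± 52.7 CPM in those with Izumo1r and Tbc1d4 alone. Pooled over libraries, it stood at 3.9 CPM in cells with none of the 6 and 704 CPM in cells with Foxp3. A UMI of Ikzf2 was present in 28.8% of the selected cells, 1.13% of the comparison cells and 68.2% of the cells with Foxp3.

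**Figure D2:**
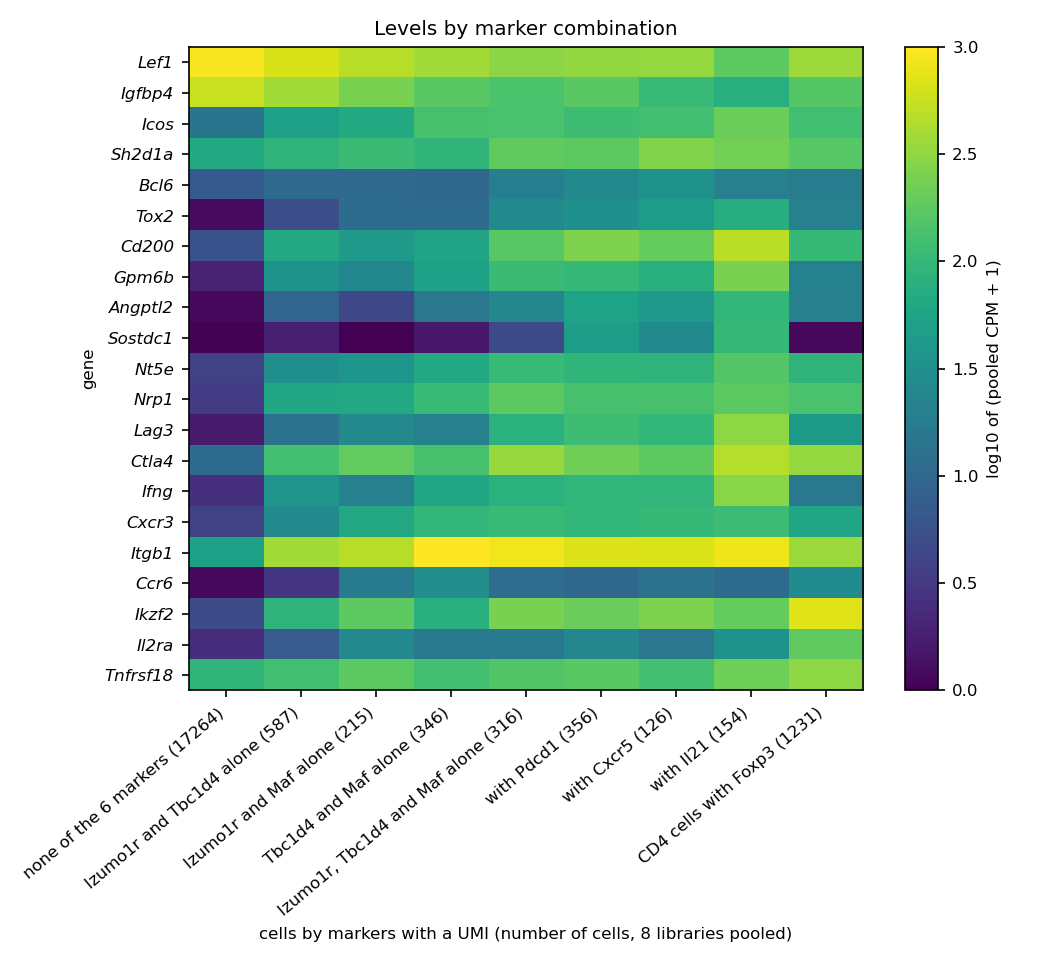
Pooled level of 21 genes (rows, log10 of CPM + 1) in cells grouped by the selecting genes they carry (columns, with the number of cells over 8 libraries), beside cells with none of the 6 and CD4 cells with Foxp3. Cells with Il21 have the highest Lag3, Cd200 and Gpm6b, cells with Tbc1d4 and Maf alone the highest Ccr6 and Itgb1, and cells with Foxp3 the highest Ikzf2.

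The authors' deposited table of genes for 7 clusters has no cluster named for follicular helper or anergic cells. In that table Tbc1d4 was listed for the CD4 Th17 cluster with a log2 fold change of 1.87 and detection in 58.4% of its cells, beside Itgb1 (2.95), Maf (1.57), Cd200 (1.02), Gpm6b (0.92) and Izumo1r (0.87). Izumo1r was listed for the CD4 Treg cluster of the authors' deposited table with 2.33 and detection in 72.0% of cells, beside Ctla4 (2.23), Maf (1.64), Nrp1 (1.35) and Tbc1d4 (1.30). Lag3 was listed in that authors' deposited table for the CD8 TRM TEM (0.67) and CD4 Th17 (0.48) clusters, and Pdcd1 for CD8 TRM TEM (0.61). Cxcr5 and Il21 had no entry for any of the 7 clusters in it.

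The cells nearest to follicular helper cells by the selecting genes were the 264 with a UMI of Cxcr5 or Il21 (13.1% of the 2010, with 16 holding both). They made up 9.41% to 18.8% of the selected cells of a library, 16 to 65 cells each, and had a median of 5338 UMIs against 4814.5 in the other selected cells, farthest apart in PPCA day 2 (6280 against 3907). Of 7776 genes tested by the same method within libraries, 351 passed (4.51%), 193 higher (2.48%) and 158 lower (2.03%). Scaled by total counts alone, 240 were higher and 117 lower (67.2% higher, against 55.0%). Without vehicle day 4 the count was 230.

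Of 17 follicular helper genes tested, 11 were higher and none lower (median log2 fold change 0.95, against -0.02 over all genes). Lag3 had 106, 185 and 425 CPM (lowest, median and highest library) in the cells with Cxcr5 or Il21 and 22.3, 37.2 and 89.5 CPM in the others. The groups did not overlap, with a log2 fold change of 2.26 ± 0.17 (edgeR adjusted p = 2.03e-14). Gpm6b had 104, 141 and 251 CPM against 12.9, 56.0 and 94.4 CPM, also without overlap (1.44 ± 0.16). Icos had 149, 171 and 212 CPM against 56.5, 85.0 and 125 CPM, again without overlap (0.90 ± 0.13, edgeR adjusted p = 1.83e-06).

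Cd200 had 169, 278 and 484 CPM against 44.4, 91.1 and 187 CPM (1.55 ± 0.14, edgeR adjusted p = 5.23e-12), and was higher in 8 of 8 libraries although the ranges overlapped. Tox2 (2.01), Sh2d1a (0.93) and Slamf6 (0.36) were higher in 8 of 8 libraries too. Angptl2 (1.88), Irf4 (1.98) and Batf (0.95) were higher in 7 of 8, and Cd40lg (0.54) in 6 of 8. Sostdc1 passed as well (3.86), on 43 and 40 UMIs in vehicle day 2 and PPCA day 4 and on none in active and onset. Bcl6 was higher by 0.66 without passing (edgeR adjusted p = 0.339).

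Of the 12 anergy genes 6 were higher and none lower (median 0.50), as were 5 of 6 tested checkpoint genes (Lag3, Entpd1, Ctla4, Cd274 and Tox, median 0.96). Besides Lag3 these were Nt5e (0.99) and Ndfip1 (0.50), in 8 of 8 libraries, Nrp1 (0.50) in 7, and Egr3 (1.22) and Egr2 (1.07) in 6. The genes Chst2 (1.68), which encodes a sulfotransferase, and 1700019D03Rik (1.93) completed, with Lag3, Tox2 and Cd200, the 5 largest rises at 20 CPM or more among genes higher in 8 of 8 libraries.

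Resting genes were lower for 7 of 10 (median -0.76), and Lef1 had 137, 237 and 426 CPM against 309, 472.5 and 620 CPM. The 5 largest falls at 20 CPM or more among genes lower in 8 of 8 libraries were Dnajb4 (-1.62), Igfbp4 (-1.45 ± 0.16), Ifngr1, which encodes a chain of the interferon gamma receptor (-1.31), St6galnac2 (-1.22) and Trat1, a partner of the T cell receptor (-1.21). Igfbp4 was lower in 8 of 8 libraries after scaling, and in 7 of 8 on plain CPM. The medians over 4 tested regulatory genes and 4 tested genes of other helper lineages were 0.10 and 0.11. Type 1 effector genes had a median of 0.90, with 6 of 12 higher (Ccl4, Ifng, Bhlhe40, Il2, Tnf and Cxcr3) and Il18r1 lower.

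**Figure D3:**
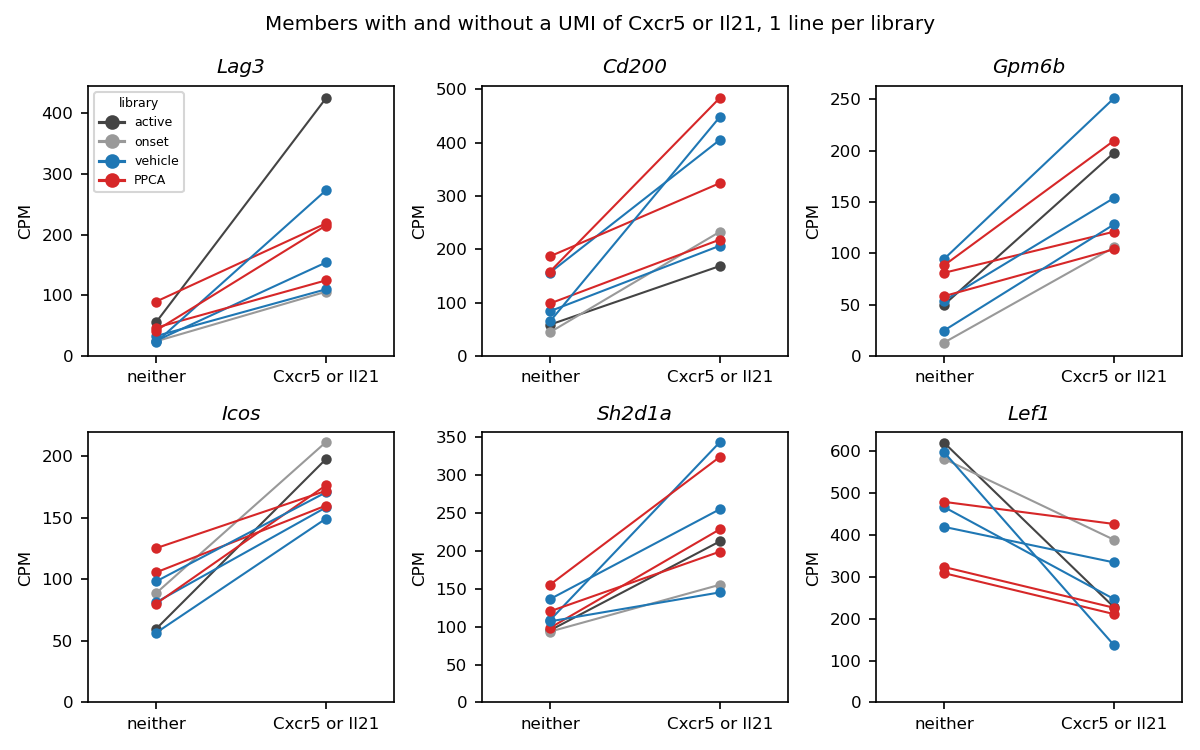
Level in CPM of 6 genes in the selected cells without (left point) and with (right point) a UMI of Cxcr5 or Il21, with 1 line per library coloured by active, onset, vehicle or PPCA. The first 5 genes are higher with Cxcr5 or Il21 in 8 of 8 libraries, and Lef1 is lower in 8 of 8.

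The share of selected cells in the CD4 gate differed widely between libraries. With cells thinned to 2000 UMIs it was 2.65% in active disease (95% Clopper-Pearson interval 1.91 to 3.57) and 2.44% at onset (1.89 to 3.09). On day 2 it was 4.50% with vehicle (3.57 to 5.60) and 7.97% with PPCA (6.78 to 9.30). On day 3 it was 5.85% with vehicle (4.86 to 6.97) and 4.22% with PPCA (3.27 to 5.35). On day 4 it was 3.43% with vehicle (2.77 to 4.20) and 11.3% with PPCA (9.90 to 12.9). PPCA was thus above vehicle on days 2 and 4 and below it on day 3, with intervals, which cover counting error only, that do not overlap on days 2 and 4. Vehicle and PPCA also differed in Xist and Y-linked transcripts on days 2 and 4, but not on day 3. The part of that difference in the shares was not tested.

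The mean was 7.84% ± 3.56 (SD, n = 3) with PPCA and 4.60% ± 1.21 (SD, n = 3) with vehicle, a difference of 3.25 percentage points. The daily differences of 3.47, -1.63 and 7.90 points had an SD of 4.77, more than their mean. An exact two-sided sign-flip test gave p = 0.5 (the smallest it can give is 0.25), and an exact two-sided permutation test p = 0.3 (smallest 0.1). Without thinning the shares were 5.56% and 4.95% in active and onset, 7.27% and 10.2% on day 2, 8.68% and 6.91% on day 3, and 7.62% and 15.6% on day 4, vehicle first. In CD8-gated cells, counted with the same 6 genes, the thinned shares were 0.348% to 1.80%. There PPCA minus vehicle had the same signs by day (1.45, -0.246 and 0.922 points).

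**Figure D4:**
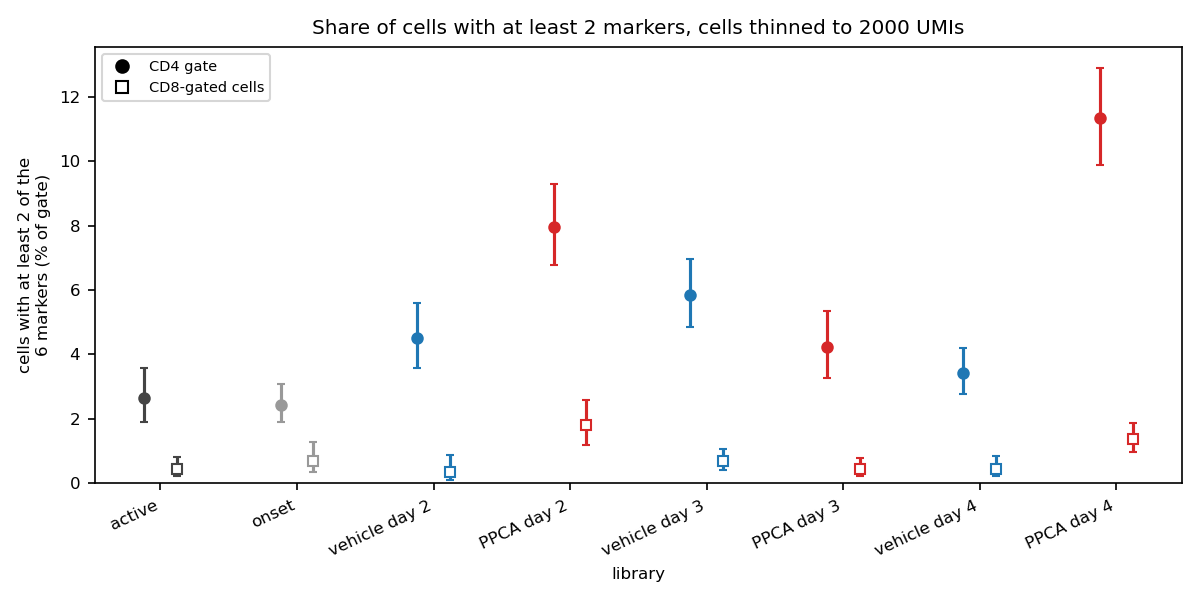
Share of cells with at least 2 of the 6 genes in the CD4 gate (filled circles) and in CD8-gated cells (open squares) of each library, in percent, with every cell thinned to 2000 UMIs and bars for 95% Clopper-Pearson intervals. PPCA day 4 is highest at 11.3%, active and onset are lowest at 2.65% and 2.44%, and no CD8 share is above 1.80%.

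The makeup of the selected cells differed between libraries as well. The share of selected cells with Pdcd1 ran from 8.21% in vehicle day 4 to 33.2% in PPCA day 2. That with Cxcr5 ran from 2.35% to 13.0%, with Il21 from 4.12% to 11.7% and with Maf from 45.3% to 67.8%.

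Within the selected cells no gene passed the test between PPCA and vehicle (0 of 8920, 0%, by edgeR with day as a block and 2 residual degrees of freedom). At an unadjusted p under 0.05 there were 497, and DESeq2 called 3, Rps15, Rpl13a and Nrgn. Without the day 4 pair 70 genes were called, without the day 3 pair 2, and without the day 2 pair 0. On simulated 2-fold changes the same fit recovered 49% of changed genes. The selecting genes differed by 0.71 (Il21), 0.62 (Pdcd1), 0.26 (Tbc1d4), 0.24 (Izumo1r), 0.24 (Maf) and 0.10 (Cxcr5) on the log2 scale, none past the test.

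Interferon response genes had the largest median of the lists between PPCA and vehicle, 1.09 on the log2 scale over 10 genes, against 0.00 over all genes, with 0 called. By day it was 2.22 on day 2, 1.08 on day 3 and -0.17 on day 4. Isg15, which encodes an interferon-induced ubiquitin-like protein, had 27.0 CPM with vehicle and 158.5 with PPCA on day 2, 25.4 and 74.8 on day 3, and 29.5 and 23.6 on day 4. Ifit1, a binder of foreign RNA, had 6.09 and 74.3, then 8.26 and 56.4, then 4.70 and 4.20 CPM. Both were thus higher with PPCA on days 2 and 3 and close to vehicle on day 4. Irf7, a factor of the same response, was higher with PPCA on each day (32.2 and 78.9, 17.1 and 48.3, 23.5 and 28.4 CPM). When the day 4 pair was left out, 70 of 8316 genes passed (0.842%), and 7 of the 10 interferon genes were among them, all higher (Isg15, Usp18, Irf7, Bst2, Rtp4, Ifit3 and Ifit1). In the same fit 4 of 9 dissociation and early response genes passed, all lower (Jun, Fosb, Fos and Dusp1).

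The same days stood out in the comparison cells, where the interferon medians were 1.76, 1.03 and -0.25 for days 2, 3 and 4. Early response genes ran the other way in both, with -0.82, -0.40 and 0.74 in the selected cells and -1.44, -0.46 and 0.54 in the comparison cells. Fos had 345 CPM with vehicle and 78.1 with PPCA on day 2, 365 and 240 on day 3, and 543 and 925 on day 4. With the Xist difference as a further factor in the fit 20 genes passed (0.224%), among them Isg15, Usp18, Ifit1, Jun, Fosb and Fos. The part of tissue dissociation in these values was not tested.

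**Figure D5:**
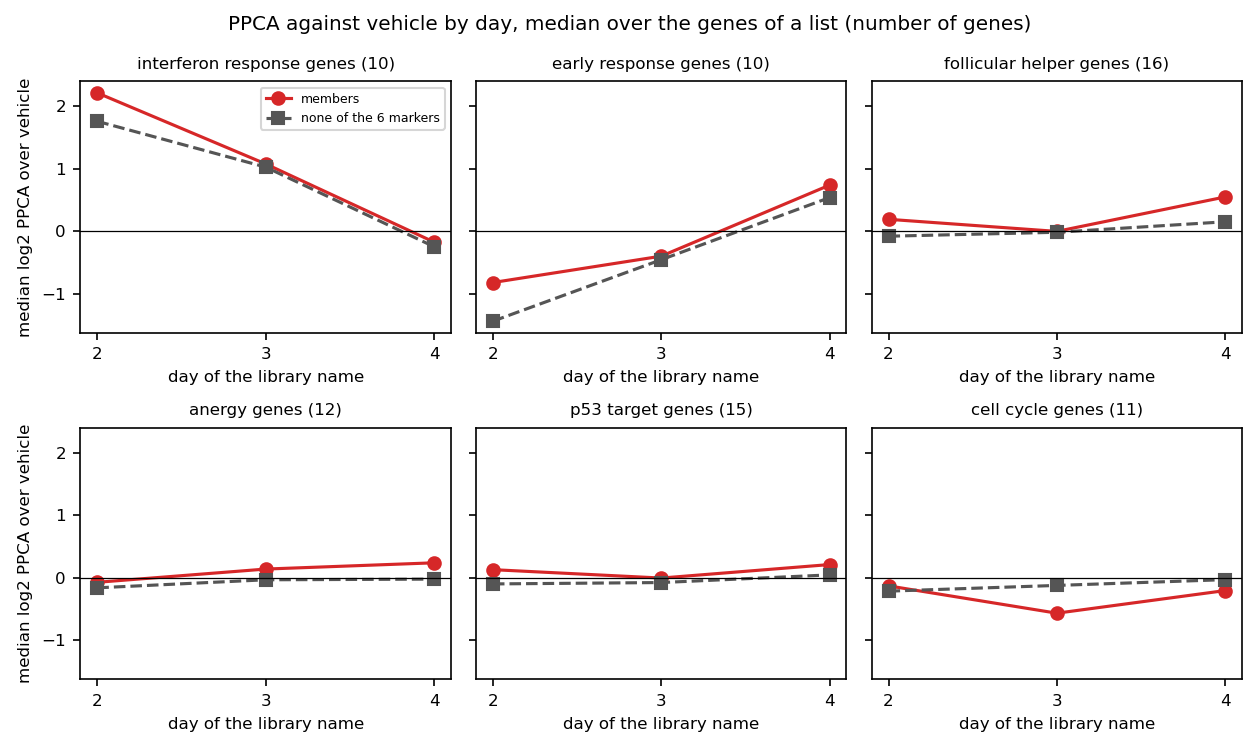
Median log2 ratio of PPCA to vehicle over the genes of 6 lists (number of genes in brackets) on days 2, 3 and 4, in selected cells (red, solid) and in cells with none of the 6 genes (grey, dashed). The interferon median falls from 2.22 on day 2 to -0.17 on day 4 in the selected cells, while the anergy median stays between -0.07 and 0.24.

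No follicular helper, anergy or checkpoint gene passed between PPCA and vehicle over the 3 days, in a fit that recovered 49% of simulated 2-fold changes. The median over 16 follicular helper genes was 0.22, with 15 above 0 and 0 called, and daily medians of 0.19, -0.00 and 0.55. On day 4, 14 of the 16 were above 0. The median over 12 anergy genes was 0.14, with 11 above 0 and daily medians of -0.07, 0.14 and 0.24. For 6 checkpoint genes it was 0.72, with 6 above 0 and daily medians of 0.47, 0.08 and 0.69. In the comparison cells the daily checkpoint medians were 0.44, -0.03 and 0.94. Lag3 had 50.5 CPM with vehicle and 115 with PPCA on day 2, 43.1 and 55.2 on day 3, and 47.5 and 75.7 on day 4. It was higher with PPCA on 3 of 3 days, by 0.71 on the log2 scale, without passing (edgeR adjusted p = 0.760). Cd200 had 205 and 214, 100 and 112, and 103 and 222 CPM. Ifng had 73.1 and 39.8, 21.2 and 40.3, and 51.7 and 214 CPM, so its direction changed between days.

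PPCA targets MDM2 and the cell cycle, and no p53 target or cell cycle gene passed the test over the 3 days. Without the day 4 pair the p53 target Sesn1 passed as higher with PPCA, and the follicular helper gene Sostdc1 as lower. Sostdc1 had 43 and 17 UMIs on day 2 and 20 and 2 on day 3, vehicle first. Of the 43, 37 were in 1 cell. Cdkn1a, the p53 target that encodes p21, had 0, 1 and 26 UMIs with vehicle and 12, 4 and 43 with PPCA on days 2, 3 and 4. Of the 12 UMIs on day 2, 11 were in 1 cell, and the log2 fold change of 1.61 did not pass. Mdm2 differed by 0.11 and Ccng1 by -0.09, and the 15 tested p53 target genes had a median of 0.11. Mki67, a gene of dividing cells, had 9.57 and 6.12, 28.3 and 8.05, and 10.7 and 5.25 CPM. It was lower with PPCA on 3 of 3 days (-1.25) without passing.

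The other genes of at least 20 CPM with the largest differences in 1 direction on all 3 days were Penk (1.95), which encodes proenkephalin, Socs2 (1.07), Irf7 (0.94), D030056L22Rik (0.83) and Xaf1 (0.79) on the higher side. Penk had 20.9 and 68.9, 22.4 and 41.4, and 0.428 and 34.1 CPM, vehicle first. Its UMIs lay in 1 to 14 cells per library. On the lower side were Gm42418 (-1.23), 2810001G20Rik (-1.06), Pdlim4 (-1.03), Ctla2a (-0.83) and Rps15 (-0.82), of which Rps15 had an edgeR adjusted p of 0.233.

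Whether PPCA acted differently in the selected cells than in those with none of the 6 genes was tested with an interaction term over the same libraries. No gene of 11035 passed by edgeR (0%). At an unadjusted p under 0.05 there were 411, and DESeq2 called 0. The largest differences the same way on 3 days at 20 CPM or more were those of Tbc1d23 (0.80), Rfx1 (0.71), B930036N10Rik (0.68), Slc1a5 (0.67) and Iigp1 (0.63) on the higher side. Ctla2a (-1.22), S100a4 (-1.16), Coro2a (-1.13), Auts2 (-0.93) and Stmn1 (-0.83) were on the lower side. The sign turned for S100a4 with depth-matched comparison cells (0.27) and for Auts2 in cells with at least 3 of the 6 genes (0.48). The interferon list had a median interaction of 0.01.

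Active and onset diabetes, with 1 library each, were compared without a test. Of 3055 genes, 49 (1.60%) were at least 2-fold apart with 50 CPM or more in the higher library, 28 higher in active disease and 21 higher at onset. With cells thinned to 2000 UMIs it was 240 of 3309 (7.25%), 117 higher in active disease and 123 at onset. The 3 largest were haemoglobin genes, of which Hbb-bs gave 1674 UMIs in active disease and 0 at onset, with 1669 of them in 1 cell. Against a floor of 3 counts over the library, Hbb-bs was at least 9.36 higher on the log2 scale, Hba-a1 at least 8.46 and Hbb-bt at least 7.001. Ifitm2 was higher in active disease by 1.94 and Art2b by 1.67. In the cells with none of the 6 genes Ifitm2 went the other way (-2.05).

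Ifng was lower in active disease, at 16.3 CPM against 61.3 CPM (-1.91), as were Gadd45b (-1.73), Ahsa2 (-1.67), Tnfaip3 (-1.59) and Fos (-1.57). The same 5 genes were lower in active disease in the comparison cells, by -3.35, -1.37, -1.30, -1.34 and -1.57 in the same order. The selecting genes differed by 0.56 (Izumo1r), 0.04 (Tbc1d4), -0.02 (Maf), -0.13 (Il21), -0.30 (Pdcd1) and -0.64 (Cxcr5), as a description.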

How the data were processed

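The authors deposited, per the file headers, matrices of UMI counts per gene and barcode over 32285 features, written by Cell Ranger 6.0.0 (6.1.2 per the submitters' processing notes, which also name Seurat). The sources used here name no genome build. The authors' deposited table gives log2 fold changes, p-values and, as a fraction, the cells positive for each gene in 7 clusters.

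The cells and gene lists were chosen with earlier results of these data known. Cells had at least 500 genes, under 10% mitochondrial UMIs and at least 2 UMIs over Cd3d, Cd3e, Cd3g, Trac, Trbc1 and Trbc2. No doublets were removed. Doublet scores came from Scrublet in scanpy 1.11.5. CD8-gated cells lacked Cd4 and Ccl5 UMIs and had Cd8a or Cd8b1 UMIs, so Ccl5-positive CD8 cells are not covered by the CD8 shares.

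Counts were summed per library and cell group and fitted with edgeR 4.0.16 in R 4.3.3 (glmQLFit, TMM, filterByExpr), with library as a block between cell groups and day as a block between treatments. Selecting and gate genes were fitted and left out of counts. Day pairs the libraries per the labels, and deviations from the arm means correlated at 0.0740, 0.223 and 0.331 for days 2, 3 and 4 over 7594 genes, against -0.330 to 0.186 for libraries of different days. The day 2 value lay below the highest of these. On simulated 2-fold changes in 200 genes the fits recovered 85.5% (selected against none), 66.5% (Cxcr5 or Il21), 49% (PPCA) and 56.5% (interaction), with 9, 5, 3 and 15 false calls.

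Named genes were all follicular helper and anergy genes, and called genes (for PPCA, any genes) averaging at least 20 CPM with the largest differences the same way in every library or day, 10 or 5 each way. Other list genes were the 2 to 4 of highest level among those called. Tnfrsf4, Cxcr3, genes of the marker combinations and genes with few UMIs were chosen after their values were seen. Thinning to 2000 UMIs left out 8 to 72 shallower cells of the gate per library. Alternatives were DESeq2 1.42.0, its size factors, scaling by total counts alone, no low-count filter, no replicate block, other cell selections, thinning and leaving out libraries. Those added after seeing the data were scaling by total counts, leaving out doublets alone or cells with any Il2ra or Ikzf2, and the interaction with no replicate block. Some genes of the lists are counted but not reported here by name.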

Additional observations from a re-analysis of the deposited data

How the results depend on the processing

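Lag3, Gpm6b, Nrp1, Nt5e, Cd200, Icos, Angptl2, Tox2, Slamf6, Lef1, Ctla4, Ifng and Egr2 kept their direction and call between selected and comparison cells under all 22 alternatives run, Lag3 within 5.54 to 7.43. The count of 3650 genes became 2291 with depth-matched cells, 2258 without Il2ra or Ikzf2 cells, 2030 in the 4 Xist libraries and 1540 with no replicate block, and 3194 to 3468 when 1 library was left out. The 351 genes of the Cxcr5 or Il21 cells became 113 with no replicate block and 230 to 401 with 1 library left out.

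The 0 genes for PPCA became 3 with DESeq2, 41 with no low-count filter, 2 with at least 3 selecting genes, 4 with thinned cells, 20 with Xist as a factor and 0 to 70 with 1 day left out. The 0 of the interaction became 11 (no low-count filter), 1 (at least 3 genes), 1 (depth-matched) and 0 to 2 with 1 day left out. The day block (no replicate block) left both at 0. Genes at least 2-fold apart between active and onset became 240 with thinned cells. The cause of these shifts was not tested.

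Scaled by total counts alone, signs changed between selected and comparison cells for Il6st (0.17), Itch (0.070), Jund (0.026) and Zbp1 (0.0029). They also changed for Il6st with size factors (0.00025), without doublets and B or myeloid UMIs (0.017), with at least 3 genes (0.062), with no replicate block (0.012), without day 4 (0.047) and in Y-linked libraries (0.073), and it ran from -0.085 to 0.039 with 1 library left out. They changed for Cst3 (-0.10, without doublets and B or myeloid UMIs), Igkc (-0.27, depth-matched), Cd40lg (-0.068 in Xist libraries, -0.016 to 0.18 with 1 library left out) and Itch (0.034, Y-linked libraries). The filter on B or myeloid UMIs counts Cst3 itself, so a fall of Cst3 under it was set in advance. For PPCA, Ccng1 ran from -0.35 to 0.051 with 1 day left out. For the interaction, signs changed for Auts2 (0.48, at least 3 genes) and S100a4 (0.27, depth-matched). Sums of 869285 to 2339017 UMIs limit genes of a few CPM.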
